A study of Mus musculus with 14 samples.

Results

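Oxidative phosphorylation makes most of a cell's ATP at the inner mitochondrial membrane, and the nuclear genes for its 5 enzyme complexes were followed across mouse intestinal crypts and sorted ATOH1-positive cells. The set held the protein-coding genes whose symbols begin with Ndufa, Ndufb, Ndufc, Ndufs, Ndufv, Uqcr, Cox4 to Cox8 or Atp5, together with Sdha to Sdhd and Cyc1, and without the Ndufaf assembly factors. This rule found 86 of the 36536 genes in the count tables: 38 named for complex I, 4 for complex II, 9 for complex III, 18 for complex IV and 17 for complex V. At least 1 read was counted for 85 of them, and 79 passed the filter on low counts in every comparison. The 7 that did not pass were Cox7b2 with 0 counts over the 14 libraries, Cox8c with 3, Cox6a2 with 4, Cox4i2 with 8, Cox8b with 10, Ndufa4l2 with 14 and Atp5g2 with 80. The names fitted the current assignments with a pair of exceptions known from the literature: the Ndufa4 protein is now placed in complex IV, and Atp5s encodes a relative of an assembly factor and no subunit.

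RNA sequencing had been done on 14 libraries in 6 groups. Whole crypts came from colon or ileum of mice aged 6 to 8 weeks that carried the Villin-CreERT2 transgene, a tamoxifen-inducible Cre driven in the intestinal epithelium, in both genotypes. Knockout (KO) mice had 2 floxed alleles of Atoh1, the transcription factor that starts secretory differentiation, and wild-type (WT) crypts came from littermates with 1 floxed allele. There were 2 libraries for each tissue and genotype. The remaining 6 libraries, 3 from colon and 3 from ileum, were live (7AAD-negative) GFP-positive cells that had been sorted out of the crypts of phenotypically normal mice homozygous for a functional ATOH1-GFP fusion. The labels do not say whether libraries of a group came from separate mice, so p-values measure the spread between these libraries, which may be technical. No age is given for the ATOH1-GFP mice. Sorting, genotype, cell type and possibly age differ between the GFP and crypt libraries and cannot be told apart. The shares of mitochondrial ribosomal RNA and of reads outside genes, given below, also differ and cannot be separated from these. In bulk RNA, fewer cells of a type cannot be told apart from less RNA per cell.

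Complex I (NADH dehydrogenase) and complex II (succinate dehydrogenase) pass electrons to ubiquinone, complex III passes them to cytochrome c, and complex IV (cytochrome c oxidase) to oxygen. Complexes I, III and IV pump protons, and complex V, the ATP synthase, uses the proton gradient to make ATP. Most subunits are encoded in the nucleus, the rest in mitochondrial DNA, and the nuclear genes are known targets of the transcription factors NRF1, GABP (an ETS-family factor), YY1 and the ERR nuclear receptors. In the intestine, absorptive cells are known as rich in mitochondria, while secretory cells (goblet, Paneth, enteroendocrine and tuft cells) depend on ATOH1 to different degrees.

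Short stretches of promoters show the letters that these regulators' textbook motifs have near the start sites of members described further on. RefSeq promoter windows (GRCm38.p6, from 250 bases before to 50 bases after the start) were listed for 67 of the 86 members, at 72 starts. They were searched on both strands for GCGCATGC (NRF1), CCGGAAG (ETS), AAGATGGC (YY1) and TCAAGGTCA (ERR). The last letters of the ETS motif are the first of the YY1 motif, so that these may overlap. The capitals mark the match, each line is 5′ to 3′ on the gene's strand, and a match on the other strand appears as its reverse complement. The lines hold, in this order, NRF1 motifs of complex I, II and IV genes, ETS motifs of complex III, II and V genes, a YY1 motif and an ERR motif of complex V genes.
Ndufa11, chr17:56717666-56717745, plus strand: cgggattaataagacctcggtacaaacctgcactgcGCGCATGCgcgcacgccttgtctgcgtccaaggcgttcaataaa
Ndufa6, chr15:82354331-82354410, minus strand: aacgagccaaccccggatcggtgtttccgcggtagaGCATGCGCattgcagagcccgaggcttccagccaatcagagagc
Sdhb, chr4:140961181-140961260, plus strand: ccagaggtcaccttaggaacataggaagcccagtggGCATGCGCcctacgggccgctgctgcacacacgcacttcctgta
Cox6a1, chr5:115349077-115349156, minus strand: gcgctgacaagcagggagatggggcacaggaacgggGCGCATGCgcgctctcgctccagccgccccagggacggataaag
Uqcr11, chr10:80406845-80406924, minus strand: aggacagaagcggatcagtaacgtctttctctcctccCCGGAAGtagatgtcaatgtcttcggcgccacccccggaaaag
Uqcrh, chr4:116075071-116075150, minus strand: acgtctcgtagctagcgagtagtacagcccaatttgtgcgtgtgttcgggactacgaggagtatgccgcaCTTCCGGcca
Sdhd, chr9:50603853-50603932, minus strand: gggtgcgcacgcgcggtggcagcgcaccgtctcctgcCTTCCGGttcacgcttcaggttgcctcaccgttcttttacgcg
Atp5h, chr11:115419920-115419999, minus strand: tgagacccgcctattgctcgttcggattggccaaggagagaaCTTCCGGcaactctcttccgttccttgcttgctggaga
Atp5j, chr16:84835021-84835100, minus strand: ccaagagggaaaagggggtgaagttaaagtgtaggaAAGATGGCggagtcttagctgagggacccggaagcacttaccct
Atp5g3, chr2:73911335-73911414, minus strand: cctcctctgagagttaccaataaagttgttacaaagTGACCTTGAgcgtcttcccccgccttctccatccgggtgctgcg

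The NRF1 motif was in 10 of the members' 72 windows, 13.9%, against 2.71% of all 32851 windows. The ETS motif was in 16, 22.2% against 8.86% of all windows. The YY1 motif was in 9, 12.5% against 2.75%, and the ERR motif was in 2, 2.78% against 0.423%. The members' windows were richer in G and C, with a median of 57.3% against 52.7%. These shares describe letters in the windows and say nothing of binding.

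Counts assigned to genes ranged from 8848660 to 10870416 in the crypt libraries and from 7478418 to 12991891 in the sorted ones. The KO libraries had 0.526 to 5.90 CPM (counts scaled to a fixed library total) of Atoh1 where the WT crypts had 39.5 to 62.6, and the sorted cells had 195 to 323. Mitochondrial ribosomal RNA took 30.0 to 44.9% of gene counts in the sorted libraries and 0.136 to 0.219% in crypts, and reads outside genes made up 24.9 to 52.3% and 9.30 to 13.2%. Scaling by the trimmed mean of M-values (TMM, which centres most genes on no difference) underlies every CPM given here. Goblet markers summed to 20517 to 70732 CPM in the sorted libraries and 7193 to 18435 CPM in WT crypts. Against WT crypts, 2 of the 5 goblet markers were called higher in colon GFP and 4 in ileum GFP (edgeR, adjusted p under 0.05). In colon Clca1 and Fcgbp lay below 0, at log2 differences of -0.53 and -0.89, and neither was called. Paneth markers summed to 51500 to 77805 CPM in ileum GFP. Within groups, colon GFP 1 had 2218 CPM of Paneth markers where colon GFP 2 and 3 had 70.6 and 64.6, and ileum GFP 1 had 1203 CPM of stem-cell markers where ileum GFP 2 and 3 had 305 and 302. Immune markers, at 536 to 1812 CPM in crypts, were at 5.73 to 129.0 CPM in colon GFP and 197 to 552 CPM in ileum GFP.

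Summed over the 86 genes, the members reached 13712 ± 964 CPM in colon WT crypts and 13650 ± 1813 CPM in ileum WT crypts (SD, n = 2 libraries each). The KO crypts had 14944 ± 276 CPM in colon and 12926 ± 512 CPM in ileum (SD, n = 2 each). Among sorted cells the sum was 16254, 17594 and 22842 CPM in colon and 11335, 12611 and 12326 CPM in ileum. On this scale each colon GFP library lay above each ileum GFP library and above every crypt library, with colon GFP 3 furthest up. As a plain share of gene counts the order against crypts was the reverse, with 1.18, 1.27 and 1.46% in colon GFP, 0.849 to 0.890% in ileum GFP and 1.56 to 2.00% in crypts. With mitochondrial rRNA left out of the total, the shares were 1.90, 2.08 and 2.64% in colon GFP, so that colon GFP 1 lay among the crypts, and 1.24 to 1.39% in ileum GFP. The TMM factors behind the scaled values were 0.637 to 0.785 in sorted libraries and 1.25 to 1.35 in crypts. Complex V made up 40.5 to 46.3% of the members' CPM in the group means, and complex II between 7.07 and 9.16%.

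**Figure D1:**
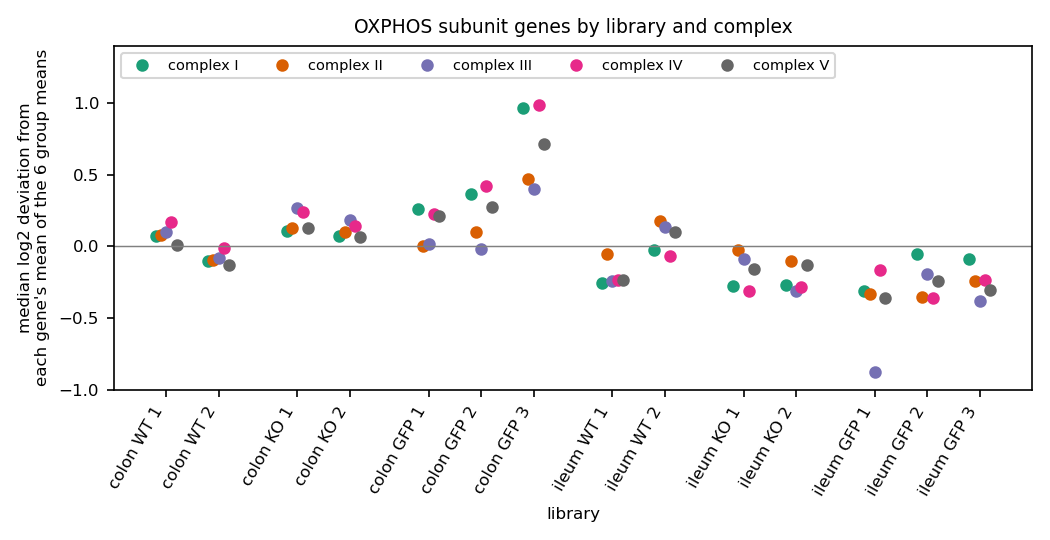
Level of the nuclear-encoded subunits in each of the 14 libraries. For each library, the points give the median over the tested members of a complex of the log2 CPM minus that gene's mean of the 6 group means, with the groups side by side. Over all tested members the 3 colon GFP libraries lie highest, at medians of 0.23, 0.34 and 0.88, and the 3 ileum GFP libraries at -0.34, -0.20 and -0.20.

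Per kilobase of transcript, the scale on which genes can be set side by side, the β subunit of ATP synthase, Atp5b, was the most abundant member in each group. Its mean level was 957 CPM per kb in colon WT, 1056 in ileum WT, 1890 in colon GFP and 1410 in ileum GFP. Atp5g3, a gene for the proton-carrying c ring, followed in colon WT with 799 CPM per kb, and its paralogs Atp5g1 and Atp5g2, which encode the same mature protein, had 7.15 and 0.594. In complex III the leading gene changed: Uqcrc1, a core protein, led in WT crypts at 694 (colon) and 840.1 CPM per kb (ileum), and Uqcrh, the hinge protein next to cytochrome c1, led in sorted cells at 900 and 513. Cox4i1, which binds ATP as a regulator of complex IV, led its complex in both WT groups, at 665 and 575 CPM per kb.

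Most tissue isoforms of complex IV were nearly silent. Cox4i2 (lung), Cox6a2 and Cox8b (heart and muscle), and Cox7b2 and Cox8c (testis) fell below the filter on low counts. Of the 10 counts of Cox8b, 8 were in colon GFP libraries. Cox7a1, the muscle isoform, had 29.6 CPM per kb in colon WT against 215 for its widely expressed counterpart Cox7a2. The testis isoform Cox6b2 had 3.38 CPM per kb in colon WT against 418 for Cox6b1.

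In whole crypts with both Atoh1 alleles floxed, no subunit gene had a called change in either tissue, while goblet markers summed to 162 to 1338 CPM against 7193 to 18435 CPM in WT. In colon, 0 of 79 members passed an adjusted p of 0.05 in edgeR's quasi-likelihood test, where 0.153% of the 14415 genes tested did, and 1 had an unadjusted p under 0.05. The median log2 change was 0.09 (0.01 over all genes), with 70 members above 0, and the SE of a member's change ranged from 0.10 to 0.42. Without colon WT 2 the median was 0.014 with 44 above 0, and without colon WT 1 it was 0.18 with 73 above 0. In 33 members both KO libraries lay above both WT libraries, in 2 both lay below. Over all genes these shares were 22.5% and 20.1%.

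In ileum, 0 of 79 passed, against 1.22% of all genes, and 3 had an unadjusted p under 0.05. Here the median was -0.08 (0.01 over all genes), 62 members were below 0, and KO and WT did not overlap for 2 members with KO higher (18.0% of all genes) and 16 with KO lower (21.9%). With DESeq2 in place of edgeR, 1 member was called in colon and 0 in ileum, where 157 and 496 of all 14415 genes were called. The difference between the tissues in their KO effect was called for 0 of 79 members (0.00694% of all genes; 1 with an unadjusted p under 0.05), with a median of 0.17 against -0.02 over all genes. The ileal values turned on the WT libraries: dropping ileum WT 2 moved the member median up to 0.10. With ileum WT 1 left out, some members were called lower. That fit rests on 1 ileum WT library, so single members are not named from it.

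A member that came near a call in the KO was Ndufs5, a small accessory subunit of complex I on the face toward the intermembrane space. It had 3.98 and 3.83 CPM in colon WT and 11.8 and 9.41 CPM in colon KO. The 2 colon groups did not overlap, and the log2 change was 1.43 (SE 0.20, edgeR adjusted p = 0.0636). In ileum the WT libraries held 4.57 and 5.32 CPM of Ndufs5, where the KO pair reached 7.97 and 8.35 CPM. The ileal log2 difference was 0.76 (SE 0.20, edgeR adjusted p = 0.153). Both tissues had the KO libraries above the WT libraries. Ndufs5 passed in colon in 3 of 15 alternative analyses, with adjusted p from 0.00403 to 0.554. Of its 50-base windows, 21.7% recur in other genes, so its counts are uncertain. The lowest adjusted p in ileum belonged to the testis isoform Cox6b2, whose WT libraries stood at 1.45 and 1.25 CPM, below the KO pair at 3.20 and 3.38 CPM (log2 difference 1.32, SE 0.32, edgeR adjusted p = 0.130).

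Between the WT crypts of the 2 tissues, 7 of 79 members differed, 8.86% where 19.9% of all genes did. Higher in colon were 6 (10.2% of all genes): Ndufa1, Ndufa6, Ndufa7 and Ndufb2 of complex I, and Cox6a1 and Cox8a of complex IV. Lower in colon was 1 (9.71% of all genes), Ndufa4. Cox6a1, the common isoform of a regulatory subunit, had 362 and 327 CPM in colon WT and 269 and 261 CPM in ileum WT. Its 2 groups did not overlap (log2 difference 0.39, SE 0.10, edgeR adjusted p = 0.0376). Ndufa4 had 70.9 and 76.6 CPM in colon WT and 132 and 106 CPM in ileum WT, also without overlap (log2 difference -0.68, SE 0.13, edgeR adjusted p = 0.0129). The median member difference was 0.11 (-0.01 over all genes), and in complex IV it was 0.28 with 12 of 13 members above 0. These calls and the direction of the median rested on single libraries. Leaving out either colon WT library removed these calls, with fewer calls over all genes too. Without ileum WT 1 the median was -0.070 with 27 of 79 members above 0. Without ileum WT 2 the median was 0.27 with 75 above 0. The members called changed in both of these fits.

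Sorted ATOH1-GFP cells and WT crypts differed in the balance of subunits within the complexes. In colon, 37 of 79 members were called higher in GFP cells and 5 lower (edgeR, adjusted p under 0.05), 53.2% together where 45.9% of all 15274 genes tested were called, 22.3% higher and 23.6% lower. The median member change was 0.50 (0.01 over all genes). In ileum, 16 were called higher and 21 lower, 46.8% together against 52.8% of all genes (24.6% higher, 28.1% lower), with a median of -0.09 (-0.06 over all genes). In both tissues, small accessory subunits were among the rises and the core proteins of complex III among the falls. Of the 5 absorptive markers 3 were called lower in colon GFP and 4 in ileum GFP (1 higher in each), of the 5 immune markers 5 and 3, and of the 7 stroma and muscle markers 4 and 7. Absorptive markers summed to 603 to 1709 CPM in sorted cells and 2130 to 8274 CPM in crypts. All 3 enteroendocrine markers were called lower in both tissues, and of the 3 tuft markers 0 in colon and 2 in ileum. The part of these cell types in the members' differences was not tested.

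Members called in one tissue were often called the same way in the other, and these 2 comparisons share no library. The 16 genes higher in ileum GFP were also higher in colon GFP, 43.2% of the colon rises and all of the ileum rises. Over all genes the shared rises numbered 2498, or 73.4% and 66.4%. The 5 genes lower in colon GFP (Uqcrc1, Uqcrc2, Uqcrfs1, Cox5a and Ndufa6) were also lower in ileum GFP, all of the colon falls and 23.8% of the ileum falls, where all genes had 2781, or 77.2% and 64.7%. Calls in opposite directions were found for 0 of 79 members and 63 of the 15274 genes tested, so the members do not stand out here.

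**Figure D2:**
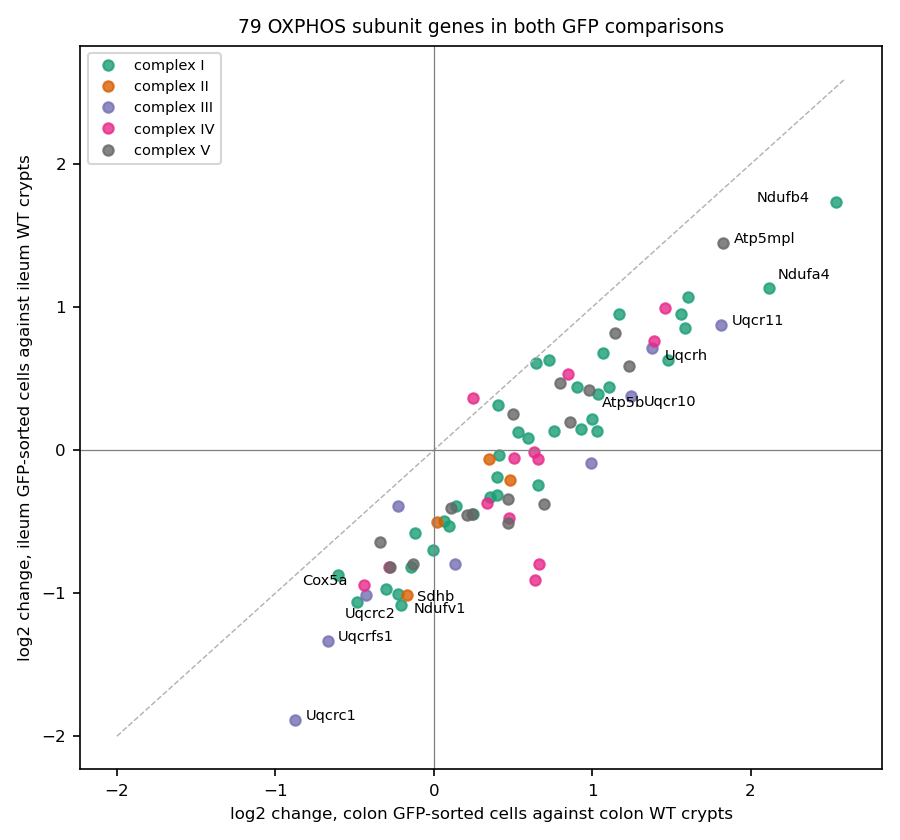
Log2 difference between sorted GFP cells and WT crypts for each tested member, colon on the horizontal axis and ileum on the vertical axis, coloured by complex. Ndufb4, Ndufa4 and Atp5mpl lie at the upper right (2.12 and 1.14 for Ndufa4), Uqcrc1 at the lower left (-0.88 and -1.88), and 78 of the 79 points lie to the right of the line of equal difference.

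In complex I, 19 of 37 members were called higher and 1 lower in colon GFP, and 9 higher and 10 lower in ileum GFP. The accessory subunits, which surround the catalytic core and hold it together, had a median change of 0.65 in colon (17 of 29 higher, 1 lower) and 0.14 in ileum (8 higher, 6 lower). The 7 core subunits, which carry the flavin and iron-sulfur clusters, had medians of -0.15 (1 higher, 0 lower) and -0.82 (0 higher, 4 lower). After removal of each gene's fitted trend on length and GC content, the core medians were 0.20 and -0.48, and the accessory medians 0.50 and 0.15. The sign of the core median in colon thus depended on that correction.

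Ndufv1, the subunit that binds NADH and flavin, had 187 and 168 CPM in colon WT and 118, 145 and 198 CPM in colon GFP. The colon groups overlapped, with colon GFP 3 above both WT libraries (log2 difference -0.21, edgeR adjusted p = 0.387). In ileum it had 159.8 and 189 CPM in WT against 74.9, 87.3 and 84.4 CPM in GFP. All 3 GFP libraries lay below both WT libraries, and Ndufv1 fell by 1.08 on the log2 scale (edgeR adjusted p = 0.000332). In ileum the core subunits Ndufs1, Ndufv2 and Ndufs3 also fell, by 1.06, 0.97 and 0.82, and so did the accessory subunit Ndufa8, by 1.01. Ndufs8, a core subunit with iron-sulfur clusters, had 0.22 in ileum and rose by 1.00 in colon (edgeR adjusted p = 0.00676).

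Ndufb4, a membrane-arm accessory subunit at a low level, had 3.64 and 3.55 CPM in colon WT and 14.1, 20.7 and 28.2 CPM in colon GFP. In ileum it had 1.98 and 4.65 CPM in WT against 13.3, 10.6 and 9.14 CPM in GFP. Sorted cells were above crypts without overlap in both tissues, by 2.54 (SE 0.36, edgeR adjusted p = 9.52e-05) and 1.73 (SE 0.36, edgeR adjusted p = 0.00133). Because 37.0% of the 50-base windows of Ndufb4 recur in other genes, its counts are uncertain. Ndufs6, a zinc-binding subunit, rose by 1.61 and 1.07, and Ndufb5, another membrane-arm subunit, by 1.56 and 0.96 (edgeR adjusted p between 1.24e-05 and 0.000399). Ndufa13, also known as GRIM-19, rose by 1.59 and 0.86, with 28.5% of its windows shared.

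Ndufa11, a membrane-arm subunit whose promoter letters are shown above, had 50.7 and 44.6 CPM in colon WT and 67.8, 88.2 and 137 CPM in colon GFP. The colon groups did not overlap (log2 difference 1.03, SE 0.25, edgeR adjusted p = 0.00393), and in ileum, where they did, the difference was 0.14 (edgeR adjusted p = 0.657).

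Ndufa6, a member of the LYR protein family on the matrix arm, went the other way. It had 118 and 101 CPM in colon WT against 56.9, 69.6 and 90.4 CPM in colon GFP, and 62.7 and 85.2 CPM in ileum WT against 33.4, 41.7 and 45.8 CPM in ileum GFP. Sorted cells were lower without overlap in both tissues, by 0.60 (edgeR adjusted p = 0.0235) and 0.87 (edgeR adjusted p = 0.00257). Its level in WT crypts was itself higher in colon.

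In complex II, which also works in the citric acid cycle, 1 of 4 members was called higher in colon and 2 lower in ileum. The catalytic subunits Sdha (flavoprotein) and Sdhb (iron-sulfur protein) changed by 0.02 and -0.17 in colon, neither called, and fell by 0.50 (edgeR adjusted p = 0.0216) and 1.01 (edgeR adjusted p = 0.00177) in ileum. Sdhb had 186 and 225 CPM in ileum WT and 77.1, 115 and 113 CPM in ileum GFP, without overlap. The membrane anchor Sdhd had 314 and 271 CPM in colon WT and 374, 431 and 419.7 CPM in colon GFP (log2 difference 0.48, edgeR adjusted p = 0.0391), and its change in ileum was -0.21 (edgeR adjusted p = 0.325).

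In complex III the subunit classes parted. The core proteins Uqcrc1 and Uqcrc2 and the Rieske iron-sulfur protein Uqcrfs1 were lower in sorted cells of both tissues. The colon falls were no longer called when colon GFP 2 was left out. Of the 5 small subunits 4 were called higher in colon and 2 in ileum. Uqcrc1 had 381 and 358 CPM in colon WT and 146, 160.0 and 299 CPM in colon GFP. In ileum it had 403 and 493 CPM in WT against 103, 147 and 114 CPM in GFP. There was no overlap in either tissue, and Uqcrc1 fell by 0.88 (SE 0.26, edgeR adjusted p = 0.0142) and 1.88 (SE 0.26, edgeR adjusted p = 5.46e-05).

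Uqcrc2 fell by 0.43 (SE 0.16, edgeR adjusted p = 0.0381) and 1.01 (SE 0.16, edgeR adjusted p = 0.000132), with 284 to 309 CPM in colon GFP against 371 and 428 CPM in colon WT. Uqcrfs1 fell by 0.67 (SE 0.20, edgeR adjusted p = 0.0142) and 1.33 (SE 0.20, edgeR adjusted p = 9.99e-05). Cyc1, the cytochrome c1 of the complex, was not called in colon (0.14, edgeR adjusted p = 0.661) and fell by 0.80 in ileum (edgeR adjusted p = 0.0105), a fall that the correction for length and GC content removed.

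Uqcr11, a small transmembrane subunit, had 56.8 and 50.5 CPM in colon WT and 118, 157 and 292 CPM in colon GFP. In ileum it had 46.2 and 61.2 CPM in WT against 99.6, 84.8 and 111 CPM in GFP. Sorted cells lay above crypts without overlap in both tissues, by 1.81 (SE 0.30, edgeR adjusted p = 0.000361) and 0.87 (SE 0.29, edgeR adjusted p = 0.0233). The hinge protein gene Uqcrh rose by 1.38 and 0.72, from 152 to 176 CPM in colon WT to 379, 397 and 504 CPM in colon GFP. Uqcr10 rose by 1.24 in colon (edgeR adjusted p = 0.00157) and had 0.38 in ileum (edgeR adjusted p = 0.215). Uqcrb, which binds near ubiquinone, was not called in either tissue at -0.23 and -0.39, with 43.4% of its windows shared.

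The ratio of the small subunits' summed CPM to that of the 2 core proteins, a quantity within each library that no scaling between libraries touches, was chosen after these values were seen. It was 0.675 ± 0.00218 in colon WT and 0.543 ± 0.0481 in ileum WT (SD, n = 2 each). In sorted cells it was 2.43 ± 0.344 in colon and 1.95 ± 0.345 in ileum (SD, n = 3 each). The KO crypts, at 0.621 and 0.460, lay on the side of the WT crypts, and the lowest sorted library stood at 1.56. For complex I the ratio of accessory to core subunits was 2.01 in colon WT, 1.78 in ileum WT, 2.94 ± 0.149 in colon GFP and 2.97 ± 0.223 in ileum GFP (SD, n = 3 each sorted group). Neither ratio was corrected for length or GC content. With that trend removed, the complex III median change went from 0.14 to 0.71 in colon and from -0.39 to -0.24 in ileum.

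In complex IV, 5 of 13 members were called higher and 1 lower in colon GFP, and 3 higher and 2 lower in ileum GFP. The paired structural subunits Cox5a and Cox5b moved in opposite directions. Cox5a, which binds a thyroid hormone metabolite, had 319 and 286 CPM in colon WT and 198, 208 and 264 CPM in colon GFP, and 221 and 274 CPM in ileum WT and 126, 132 and 129 CPM in ileum GFP. It was lower in every sorted library of a tissue than in its WT crypts, by 0.44 (edgeR adjusted p = 0.0415) and 0.94 (edgeR adjusted p = 0.000318). Cox5b, a zinc-binding subunit on the matrix side, had 49.3 and 41.3 CPM in colon WT and 96.1, 122 and 139 CPM in colon GFP, and 32.2 and 37.9 CPM in ileum WT and 53.8, 61.9 and 62.2 CPM in ileum GFP. It was higher in every sorted library, by 1.39 (edgeR adjusted p = 3.17e-05) and 0.76 (edgeR adjusted p = 0.00225). Cox5a is among the 24 members of whose 50-base windows at least 10% recur in other genes.

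Cox7a2l, also known as SCAFI and known to join complexes III and IV into supercomplexes, had 56.3 and 48.2 CPM in colon WT and 126, 137 and 168 CPM in colon GFP. In ileum it had 40.7 and 44.2 CPM in WT against 84.1, 88.5 and 80.7 CPM in GFP. The groups stood apart in both tissues, with rises of 1.46 (SE 0.15, edgeR adjusted p = 8.25e-06) and 0.99 (edgeR adjusted p = 0.000127). Ndufa4 had 70.9 and 76.6 CPM in colon WT and 283, 303 and 374 CPM in colon GFP, and 132 and 106 CPM in ileum WT and 272, 238 and 276 CPM in ileum GFP. It rose by 2.12 (SE 0.18, edgeR adjusted p = 1.69e-06) and 1.14 (SE 0.17, edgeR adjusted p = 0.000113). Cox8a, the common isoform of the smallest subunit, had -0.28 in colon (edgeR adjusted p = 0.268) and fell by 0.82 in ileum (edgeR adjusted p = 0.00392).

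In complex V, 8 of 16 members were called higher and 0 lower in colon GFP, and 2 higher and 3 lower in ileum GFP. The α and β subunits alternate in equal number in the catalytic F1 head, and their mRNAs did not keep step. Atp5b (β) had 1918 and 1747 CPM in colon WT and 3469, 3443 and 3952 CPM in colon GFP, and rose by 0.98 (SE 0.21, edgeR adjusted p = 0.00196). Atp5a1 (α) had 1723 and 1628 CPM in colon WT and 1338, 1311 and 1501 CPM in colon GFP, a difference of -0.28 that was not called (edgeR adjusted p = 0.265). In ileum Atp5b had 0.42 (edgeR adjusted p = 0.103), and Atp5a1 fell by 0.82 (SE 0.19, edgeR adjusted p = 0.0031).

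The ratio of Atp5b to Atp5a1 within each library was 1.09 in colon WT and 1.14 in ileum WT, and 1.06 and 1.16 in the KO crypts (means of 2 libraries). It was 2.62 ± 0.0208 in colon GFP and 2.71 ± 0.119 in ileum GFP (SD, n = 3 each). The 6 sorted libraries lay between 2.59 and 2.85. This pair was also picked out after its values were seen.

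Atp5mpl, a small proteolipid bound to the membrane sector, rose in sorted cells of both tissues, with 119 and 102 CPM in colon WT and 317, 375 and 489 CPM in colon GFP. In ileum it had 83.6 and 117 CPM in WT against 342, 219 and 261 CPM in GFP. No sorted library overlapped the crypts, and the rises were 1.83 (SE 0.24, edgeR adjusted p = 4.29e-05) and 1.45 (SE 0.23, edgeR adjusted p = 0.000174). Atp5h, part of the stalk that holds the F1 head still, rose by 1.14 and 0.82 (edgeR adjusted p = 0.000127 and 0.00124). Atp5l, at -0.34 and -0.64 and not called in either tissue, shares 84.8% of its windows with other genes, and its counts cannot be assigned with certainty.

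**Figure D3:**
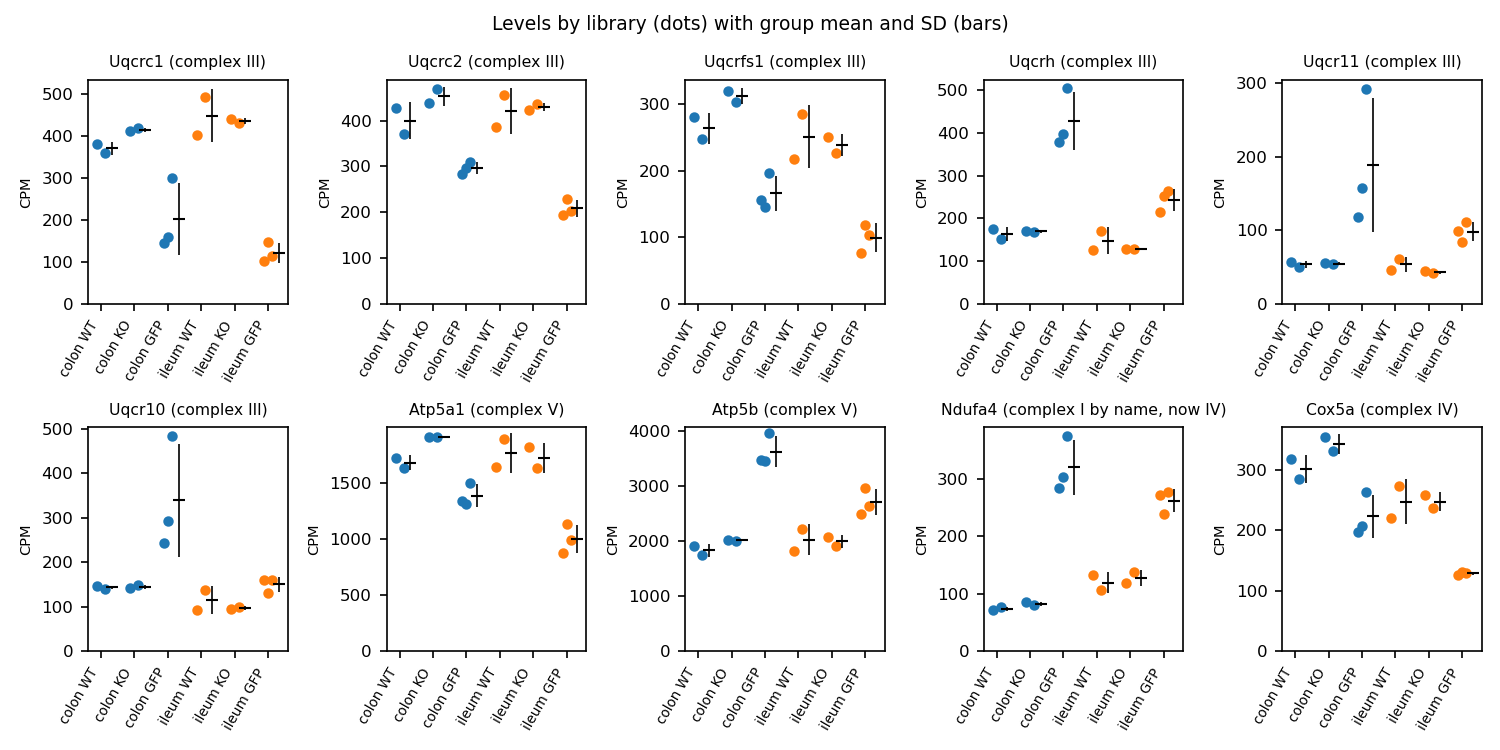
Level of 10 members named in the text in each library, in CPM on axes that start at 0, with dots for libraries, bars for the group mean and SD, colon in blue and ileum in orange. In sorted cells of both tissues Uqcrc1, Uqcrc2, Uqcrfs1 and Cox5a lie below the WT crypts and Uqcrh, Uqcr11, Atp5b and Ndufa4 above them, with colon GFP 3 highest for Uqcr11 at 292 CPM.

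The number of colon calls moved most with the WT libraries. With either colon WT library left out, fewer members were called in colon GFP, and fewer of all genes as well. The median was 0.56 without colon WT 1 and 0.41 without colon WT 2. Without colon GFP 3 there were 39 calls, 31 higher and 8 lower, and the median fell to 0.29. Without colon GFP 1 there were 44 calls, 42 higher and 2 lower. Without colon GFP 2 there were 36 calls, all higher, so that none of the 5 colon falls held in that fit. In ileum 21 of the 37 calls held whichever library was left out.

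The colon difference was larger than the ileum difference for 78 of 79 members, with a median gap of 0.65 on the log2 scale (0.04 over all genes). The gap itself was called for 1 member, Ndufa4, at 0.98 (SE 0.24, edgeR adjusted p = 0.0480), 1.27% of members where 2.19% of all genes were called and 1.3% were called larger in colon. An unadjusted p under 0.05 was found for 41 of 79 members, and for 2636 of all 15274 genes tested. DESeq2 called 5 of the 79 members, and 840 of the 15274 genes. Ndufa4 passed in 6 of 20 alternative analyses, with adjusted p from 0.00209 to 0.211.

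Most subunit genes were higher in sorted cells of colon than in sorted cells of ileum. This comparison uses the same colon GFP libraries as the comparison with colon WT and the same ileum GFP libraries as that with ileum WT. All 79 log2 differences were above 0, with a median of 0.74 (0.00 over all genes). Called higher in colon were 56 of 79 (edgeR, adjusted p under 0.05), 70.9% where 22.7% of all genes were called and 12.6% were called higher, and 0 members were called lower. In 67 members each colon GFP library lay above each ileum GFP library, which held for 18.3% of all genes. Mitochondrial rRNA took 38.2 to 44.9% of gene counts in colon GFP and 30.0 to 35.9% in ileum GFP, and all 4 Paneth markers were called lower in colon GFP, where they summed to 64.6 to 2218 CPM against 51500 to 77805 CPM. Of the 5 goblet markers 2 were called lower in colon GFP and 0 higher. The part of these in the difference was not tested.

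**Figure D4:**
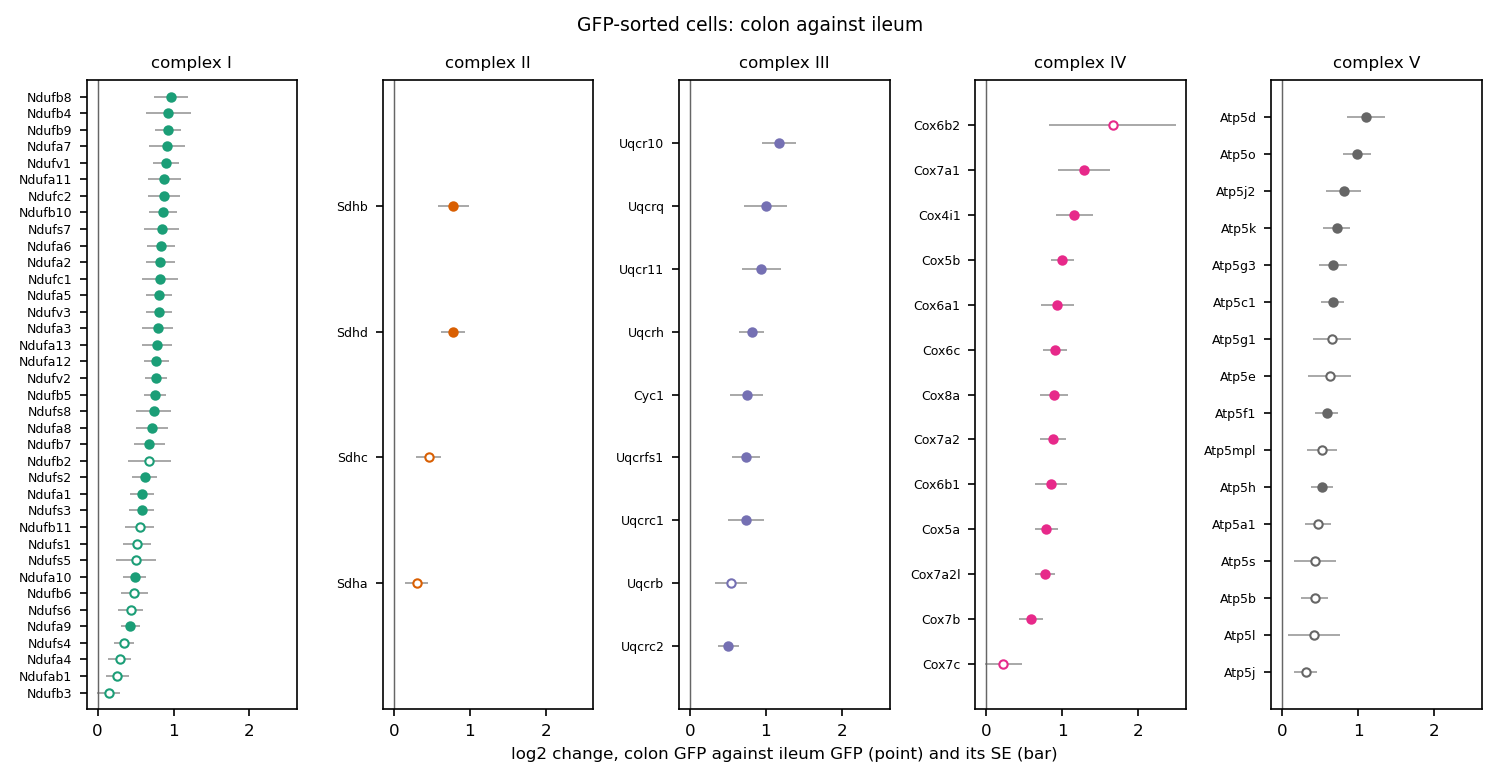
Log2 difference of colon GFP over ileum GFP for each of the 79 tested members, in 1 panel per complex, with bars for the SE and filled points for an adjusted p under 0.05. All points lie to the right of 0, from 0.15 for Ndufb3 to 1.67 for Cox6b2, and 56 are filled.

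By complex, 27 of 37 members of complex I, 2 of 4 of complex II, 8 of 9 of complex III, 11 of 13 of complex IV and 8 of 16 of complex V were called higher in colon GFP. The medians were 0.75, 0.62, 0.74, 0.89 and 0.60 in that order. Both subunit classes that parted in the comparison with crypts were higher in colon here, with medians of 0.78 for accessory and 0.74 for core subunits of complex I.

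The largest called difference was that of Cox7a1, the muscle isoform, at 15.2 to 26.6 CPM in colon GFP and 5.62 to 10.1 CPM in ileum GFP. The groups did not overlap (log2 difference 1.29, edgeR adjusted p = 0.0154). Uqcr10 followed, with 243, 292 and 483 CPM in colon and 159, 130.4 and 161 CPM in ileum (log2 difference 1.18, edgeR adjusted p = 0.00212). Cox4i1 had 453, 592 and 1024 CPM in colon and 314, 256 and 357 CPM in ileum (log2 difference 1.16, edgeR adjusted p = 0.00425). In all 3 genes the highest value was that of colon GFP 3, and colon GFP 1 and 2 also lay above every ileum GFP library.

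Atp5d, the δ subunit of the F1 central stalk, had 283, 327 and 655 CPM in colon GFP and 178, 205 and 207 CPM in ileum GFP (log2 difference 1.10, edgeR adjusted p = 0.00651). Uqcrq, the ubiquinone-binding small subunit, differed by 1.00 (edgeR adjusted p = 0.0235). Cox5b also differed by 1.00, with little spread between libraries (edgeR adjusted p = 0.000352). Cox6a1, whose promoter letters are shown above, had 368, 424 and 676 CPM in colon GFP against 202, 277 and 287 CPM in ileum GFP (log2 difference 0.94, edgeR adjusted p = 0.00615).

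Members without a call included Ndufb3 (0.15), Cox7c (0.23), Ndufab1 (0.26), the acyl carrier protein of mitochondria, Ndufa4 (0.29), Sdha (0.30) and Atp5j (0.31). The testis isoform Cox6b2 had the largest difference, 1.67, but was not called (edgeR adjusted p = 0.167), with 1.06, 1.62 and 4.33 CPM in colon GFP and 2.04, 0 and 0.286 CPM in ileum GFP. Those libraries overlapped. Atp5b, the most abundant member, differed by 0.42 (edgeR adjusted p = 0.112) although each colon GFP library exceeded each ileum GFP library.

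Without colon GFP 3, 36 members were called, 35 of them among the 56, and the median was 0.51. Without colon GFP 1, the library with more Paneth transcripts, all 56 were still called, and 32 were called whichever single library was left out. With the trend on length and GC content removed, 46 were called and the median was 0.59, where the median over all genes became -0.10. The members are shorter than other genes, with a median length of 659 bases against 2016, and across the 79 members the difference rose with GC content (Spearman's rho 0.56, against 0.17 across 14635 genes, which are not independent replicates). The part of length and GC content in the difference was not tested beyond this fit.

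The subunits encoded in mitochondrial DNA were compared with their nuclear partners as far as they were counted. Of the 13, 7 passed the filter, and 1 was called in each comparison of sorted cells with crypts, the complex I subunit mt-Nd6, lower by 1.31 in colon (edgeR adjusted p = 0.0179) and by 2.06 in ileum (edgeR adjusted p = 0.00103). Between colon and ileum GFP 0 of the 7 were called, with a median of 0.21. The 2 mitochondrial rRNAs were higher in sorted cells of both tissues, with medians of 8.66 and 8.14, in libraries whose RNA preparation the labels describe in the same words.

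Of the known regulators of respiratory genes, 17 were tested. In sorted cells against crypts, 4 were called higher and 7 lower in colon, and 3 higher and 8 lower in ileum, where all genes had 22.3 and 23.6% in colon and 24.6 and 28.1% in ileum. Esrra, which encodes the receptor ERRα, was lower by 2.75 in colon (edgeR adjusted p = 3.41e-05) and 2.46 in ileum (edgeR adjusted p = 5.49e-05). Between colon and ileum GFP its difference was -0.37. In that comparison 2 of the 17 were called higher and 3 lower, and the list's median was -0.01. Higher in colon GFP were Ppargc1a, the coactivator of mitochondrial biogenesis, by 1.29 (edgeR adjusted p = 0.000942), and its relative Ppargc1b, by 0.98 (edgeR adjusted p = 0.0372). Lower were the nuclear receptor gene Hnf4a, by 0.77, Nrf1, by 0.64 (edgeR adjusted p = 0.0356), and the coactivator gene Pprc1, by 0.61.

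Assembly factors, which build the complexes without staying in them, had 9 of 43 members higher and 1 lower in colon GFP against ileum GFP, with a median of 0.20. The mitochondrial ribosome, which translates the mitochondrially encoded subunits, had 18 of 76 higher and 1 lower, with a median of 0.31. For this comparison, 12.6% of all genes were called higher and 10.2% lower. Fuel pathways also lay higher in colon GFP: 10 of 18 genes of the citric acid cycle and pyruvate dehydrogenase, 10 of 15 of glycolysis and 8 of 14 of fatty acid oxidation and ketogenesis were called higher and 0 lower, with medians of 0.52, 0.89 and 0.63. Ldhb, a lactate dehydrogenase subunit, was higher by 5.85. Slc25a4, an exchanger of ADP and ATP across the inner membrane, was higher by 2.55.

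Against crypts, more genes of the same fuel lists were called lower than higher in sorted cells. In ileum 12 of 18 genes of the citric acid cycle list, 11 of 15 of glycolysis and 10 of 14 of fatty acid oxidation were called lower, and 0, 0 and 2 higher, with medians of -0.64, -1.42 and -1.27, where 28.1% of all genes were called lower and 24.6% higher. In colon the falls numbered 5, 6 and 8 and the rises 3, 0 and 2, with medians of -0.08, -0.65 and -0.86, against 23.6% of all genes lower and 22.3% higher. For the citric acid cycle list in colon the count of falls is near that background. Acadvl, which starts the oxidation of very long chain fatty acids, fell by 3.15 in colon and 3.69 in ileum. Idh3a, a catalytic subunit of the citric acid cycle's NAD-dependent isocitrate dehydrogenase, fell by 1.08 and 1.75. The part of the lower absorptive markers in these falls was not tested.

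**Figure D5:**
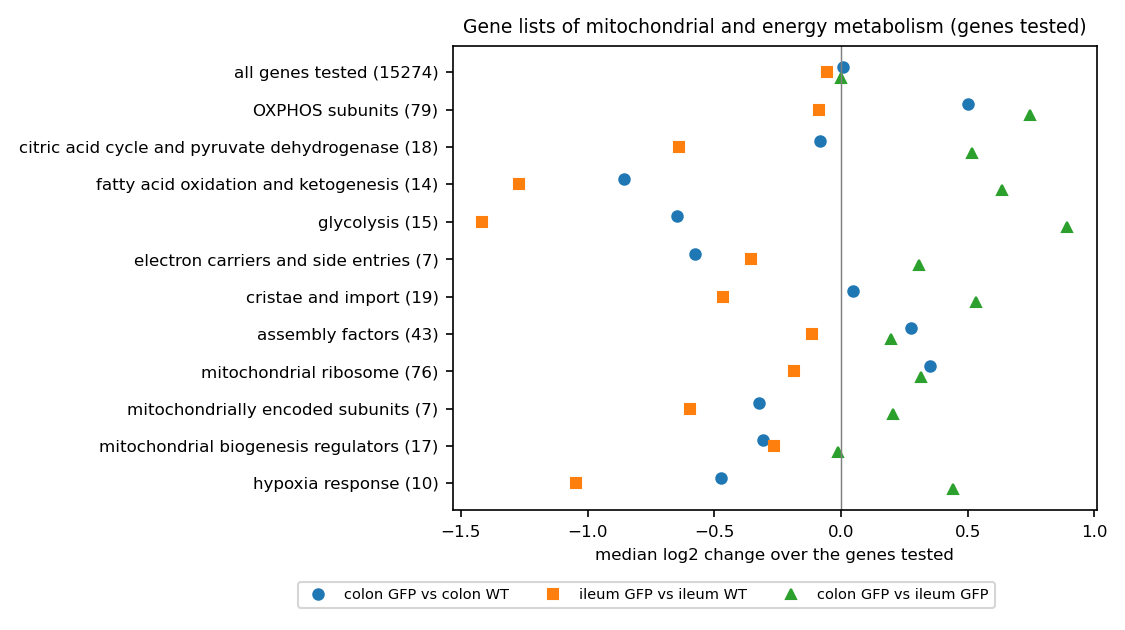
Median log2 difference of each gene list in the 3 comparisons of sorted cells, with the nuclear-encoded subunits beside other mitochondrial and fuel lists and all genes. In colon GFP against ileum GFP the subunits stand at 0.74, glycolysis at 0.89 and all genes at 0.00, and against crypts the fuel lists lie below 0 in both tissues.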

How the data were processed

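The authors deposited raw read counts per gene for each library; per the submitters' processing notes, TopHat 1.4.1, HTSeq and mm9 were used, with settings not given in the sources used here. Rows naming no gene were left out of library sizes (their range is in the report). Symbols, lengths and GC content came from GENCODE M21, a later build than the files', so no coordinates of the files' genes are given. The deposited counts were scaled by TMM and tested with edgeR 4.0.16 in R 4.3.3 (quasi-likelihood, robust, filtered by group, Benjamini-Hochberg over all genes). The 8 crypt libraries were fitted together for the KO and WT comparisons (14415 genes), and all 14 for comparisons with GFP cells (15274 genes). A member was called at an adjusted p under 0.05. The test script was tested on simulated data. Depth of 7478418 to 12991891 counts per library limits low members such as Cox6b2.

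Any member could be named; the text takes the 6 largest called rises and falls per comparison where given, the most abundant member of each complex, the tissue isoforms and examples of other lists. Members and lists were chosen with earlier results of these data known. Alternatives were DESeq2 1.42.0, other scalings and filters, other sets of libraries, single libraries left out, a replicate block, and a length and GC trend. Replicate numbers were not taken to pair libraries, since no label ties a number to a mouse, litter or day.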

Additional observations from a re-analysis of the deposited data

Results flagged for a closer look

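The difference between GFP cells and WT crypts was larger in colon than in ileum for Ndufa4, by 0.98 on the log2 scale (SE 0.24, edgeR adjusted p = 0.0480), in a test of the difference between the tissues. Each of the 3 colon GFP and 3 ileum GFP libraries lay above the WT crypts of its tissue. The WT crypts themselves differed between the tissues, with 70.9 and 76.6 CPM in colon and 132 and 106 CPM in ileum, while colon and ileum GFP differed by 0.29 (edgeR adjusted p = 0.179). Groups of 2 or 3 libraries were too small for a test of single outlying libraries.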

How the results depend on the processing

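With 2 or 3 libraries a group, single libraries moved most counts. Leaving out each library in turn gave 0 to 8 called members for the ileum KO (median -0.23 to 0.10), 0 to 17 for colon against ileum WT (median -0.070 to 0.27), a median of 0.014 to 0.18 for the colon KO, 23 to 44 for colon GFP against WT (median 0.29 to 0.68), a median of -0.28 to 0.063 for ileum GFP against WT, 0 to 3 for the difference between those 2 effects (median 0.44 to 0.80), and 36 to 64 for colon against ileum GFP (median 0.51 to 0.86). Leaving out replicate 2 of both WT groups, chosen after seeing the data, gave an ileum KO median of 0.10, a median of -0.079 for the difference between the KO effects, 13 calls and a median of 0.34 for colon against ileum WT, 24 calls for colon GFP against WT, and 0 calls with a median of 0.40 for the difference between the GFP effects. For the colon KO, 1 member was called with no filter, with DESeq2 and with only the compared groups fitted. For colon against ileum WT, there were 4 calls with no filter, 4 with the length and GC trend removed, 1 with all 14 libraries and 0 with only those groups. For the difference between the GFP effects, calls numbered 0 with DESeq2's size factors, 4 with no filter, 5 with DESeq2's test and 0 with only the compared groups. Over all genes these fits called 329 of 15274, 1093 of 28699, 840 of 15274 and 155 of 14972 in that order. The causes were not tested. Library sizes without genes above 1% of counts gave summed levels of 19485 CPM in colon WT, 18800.4 in ileum WT, 20582 in colon KO, 17741 in ileum KO, 26011 in colon GFP and 15855 in ileum GFP, which keeps colon GFP highest and ileum GFP lowest. Cyc1 in ileum GFP against WT went from -0.80 to 0.0024 with the length and GC trend removed (edgeR adjusted p = 0.996), where the fitted trend for a gene of its length and GC content is itself subtracted.

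With the replicate number as a block, calls numbered 0 for both KO comparisons, 4 for colon against ileum WT (4 also with the trend removed), 43 and 41 for GFP against WT in colon and ileum, 0 for the difference between those effects (0 also with the trend removed), and 56 for colon against ileum GFP. Deviations of same-numbered libraries correlated at 0.31 between the KO groups and 0.27 between the WT groups, and at -0.06 to 0.08 between KO and WT, over 2 libraries a group. Low-count members, the uncertain length of transcripts and windows shared with other genes limit single members most.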
